A study of Mus musculus with 6 samples.

Results

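The 42 genes described here belong to the interferon response and to the sensing of foreign or misplaced nucleic acids. They were taken by gene name from the table of normalized counts of E14.5 Sst-Cre/tdTomato cells, at any abundance, and all 42 were found among its 57132 listed genes. By role they comprised 8 nucleic acid sensors and adaptors, 5 transcription factors, 6 enzymes that bind or act on double-stranded RNA, 17 induced antiviral effectors and 6 genes of antigen presentation. The selection rule used gene names and no measured value, but the list was drawn up with earlier results of these data known.

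Interferon signalling starts when a sensor meets RNA or DNA in the wrong form or place. The helicases encoded by Ifih1 and Rigi detect double-stranded RNA and signal through Mavs, whereas Cgas detects cytosolic DNA and signals through Sting1. Both routes activate Irf3, which switches on type I interferon genes. Secreted interferon binds Ifnar1 and Ifnar2 and activates a complex that holds Stat2 and Irf9 and binds the interferon-stimulated response element (ISRE) of its effector genes. In cells that lose DNA methylation, transcripts of reactivated retroelements can form double-stranded RNA and feed the same pathway, a process known as viral mimicry. Adar, which edits double-stranded RNA, is known to limit sensing of the cell's own RNA. The question addressed was whether these genes differed after deletion of Dnmt1, the maintenance DNA methyltransferase. The values used are counts per gene, and neither DNA methylation nor retroelement transcripts were measured here. In KO cells of the basal telencephalon the paper reports regions that gained and regions that lost methylation.

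Sorted tdTomato-positive cells of the embryonic mouse cortex (E14.5) gave the total RNA, which was compared between 3 control (Sst-Cre/tdTomato) and 3 Dnmt1 KO (Sst-Cre/tdTomato/Dnmt1 loxP2) libraries. In both groups Cre was driven by the somatostatin locus and switched on tdTomato, so all cells carried Cre and the reporter. Per the study's methods the KO group also carried floxed Dnmt1, which Cre deletes in postmitotic SST+ cells. The samples' titles give these groups, while their genotype label reads Sst-Cre/tdTomato in all 6. Cells were pooled from several embryos per genotype, so the libraries of a genotype may share 1 pool, and p-values measure no more than how far these libraries spread, which may be technical.

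Recovered read totals ranged from 7154043 to 10089981 per library, and 21316 to 22792 genes had at least 1 read. Dnmt1 had normalized counts of 3025, 2539 and 2741 in control replicates 1, 2 and 3 and of 2411, 2243 and 2255 in Dnmt1 KO replicates 1, 2 and 3. The groups did not overlap, and the log2 fold change was -0.26 (limma, adjusted p = 0.022). The call was lost without control replicate 1 (adjusted p = 0.058), Dnmt1 KO replicate 2 (0.085) or Dnmt1 KO replicate 3 (0.093). It was also lost with quantile normalization (log2 fold change -0.15, adjusted p = 0.090) and with scaling by total reads (-0.0039, adjusted p = 0.972). Counts over the whole gene do not separate the floxed part from the rest of the transcript. Sst, the gene that marks these cells, had normalized counts of 2852 to 3068 in control and 3154 to 3453 in Dnmt1 KO libraries. Reads in protein-coding genes made up 57.2 to 60.8% of control and 70.7 to 70.9% of Dnmt1 KO reads.

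The induced members are known to be switched on through the ISRE. Promoters of 300 bases, from 250 before to 50 after the RefSeq start site (GRCm38.p6), were searched for the ISRE core GAAANNGAAA on both strands. RefSeq windows were matched for 33 of the 42 members (39 windows). The ISRE core was found in 14 of the 39 windows (35.9%), compared with 3.44% of 32851 windows of all genes. Of these 14 windows, 10 were among the 22 windows (45.5%) of members averaging under 10 normalized counts. The other 4 (B2m, Ifitm2, Stat2 and Eif2ak2) were among the 17 windows (23.5%) of members averaging at least 10. Stretches of 60 bases upstream of the start site are shown for 4 members that were nearly silent in these cells (Isg15, Ifit1, Rsad2 and Ifit3) and for 3 that were expressed (B2m, Ifitm2 and Stat2), so that the element can be compared between them. The stretches lie at chr4:156200856-156200915, minus strand (Isg15), chr19:34640769-34640828, plus strand (Ifit1), chr12:26456538-26456597, minus strand (Rsad2), chr19:34583365-34583424, plus strand (Ifit3), chr2:122147523-122147582, plus strand (B2m), chr7:140955973-140956032, minus strand (Ifitm2) and chr10:128270251-128270310, plus strand (Stat2). Capitals mark the ISRE core, which reads as its reverse complement in Ifit1, Rsad2, Ifit3 and Stat2.
Isg15: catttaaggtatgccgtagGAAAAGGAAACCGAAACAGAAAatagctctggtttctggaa
Ifit1: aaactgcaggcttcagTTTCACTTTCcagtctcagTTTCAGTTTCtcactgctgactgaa
Rsad2: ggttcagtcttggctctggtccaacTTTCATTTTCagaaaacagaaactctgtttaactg
Ifit3: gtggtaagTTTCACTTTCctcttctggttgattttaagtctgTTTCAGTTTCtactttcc
B2m: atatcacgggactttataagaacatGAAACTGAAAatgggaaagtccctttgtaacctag
Ifitm2: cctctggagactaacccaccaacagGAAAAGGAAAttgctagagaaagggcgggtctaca
Stat2: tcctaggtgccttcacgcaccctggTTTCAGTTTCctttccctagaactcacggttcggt

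The Isg15 stretch holds 3 overlapping copies of the core, those of Ifit1 and Ifit3 hold 2 each, and the others hold 1. The 60 bases of Ifit3 were identical to those of its neighbour Ifit3b. The site TTCNNNGAA, known as the interferon gamma-activated site, reads the same on both strands, can share letters with an ISRE core, and was present in 9 of 39 member windows (23.1%) and in 8.30% of all windows. Members with a mean under 10 had a median of 6 CpG per window and those with a mean of at least 10 a median of 14, beside 7 over all windows. A match is a run of letters in a window and was not tested as a binding site.

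Most induced antiviral effectors had few or no reads in either genotype, with Ifit2 and Ifitm2 as exceptions, whereas Adar, Irf3, Irf9, Stat2 and H2-D1 were clearly expressed in both. Of the 42 genes, 37 had at least 1 read, 20 had a read in all 6 libraries, and 5 (Ifit1, Ifi44, Mx2, Rsad2 and Psmb9) had none. Adar alone accounted for 60.5% of the 7653 reads of all members. The 30 members with a mean normalized count under 10 had 288 reads together, and 18 members had 10 reads or fewer over all 6 libraries. A count of 0 allowed up to 2.22 to 3.70 normalized counts in a single library, and up to 1.09 over the 3 control and 0.895 over the 3 Dnmt1 KO libraries, for counting error only.

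**Figure D1:**
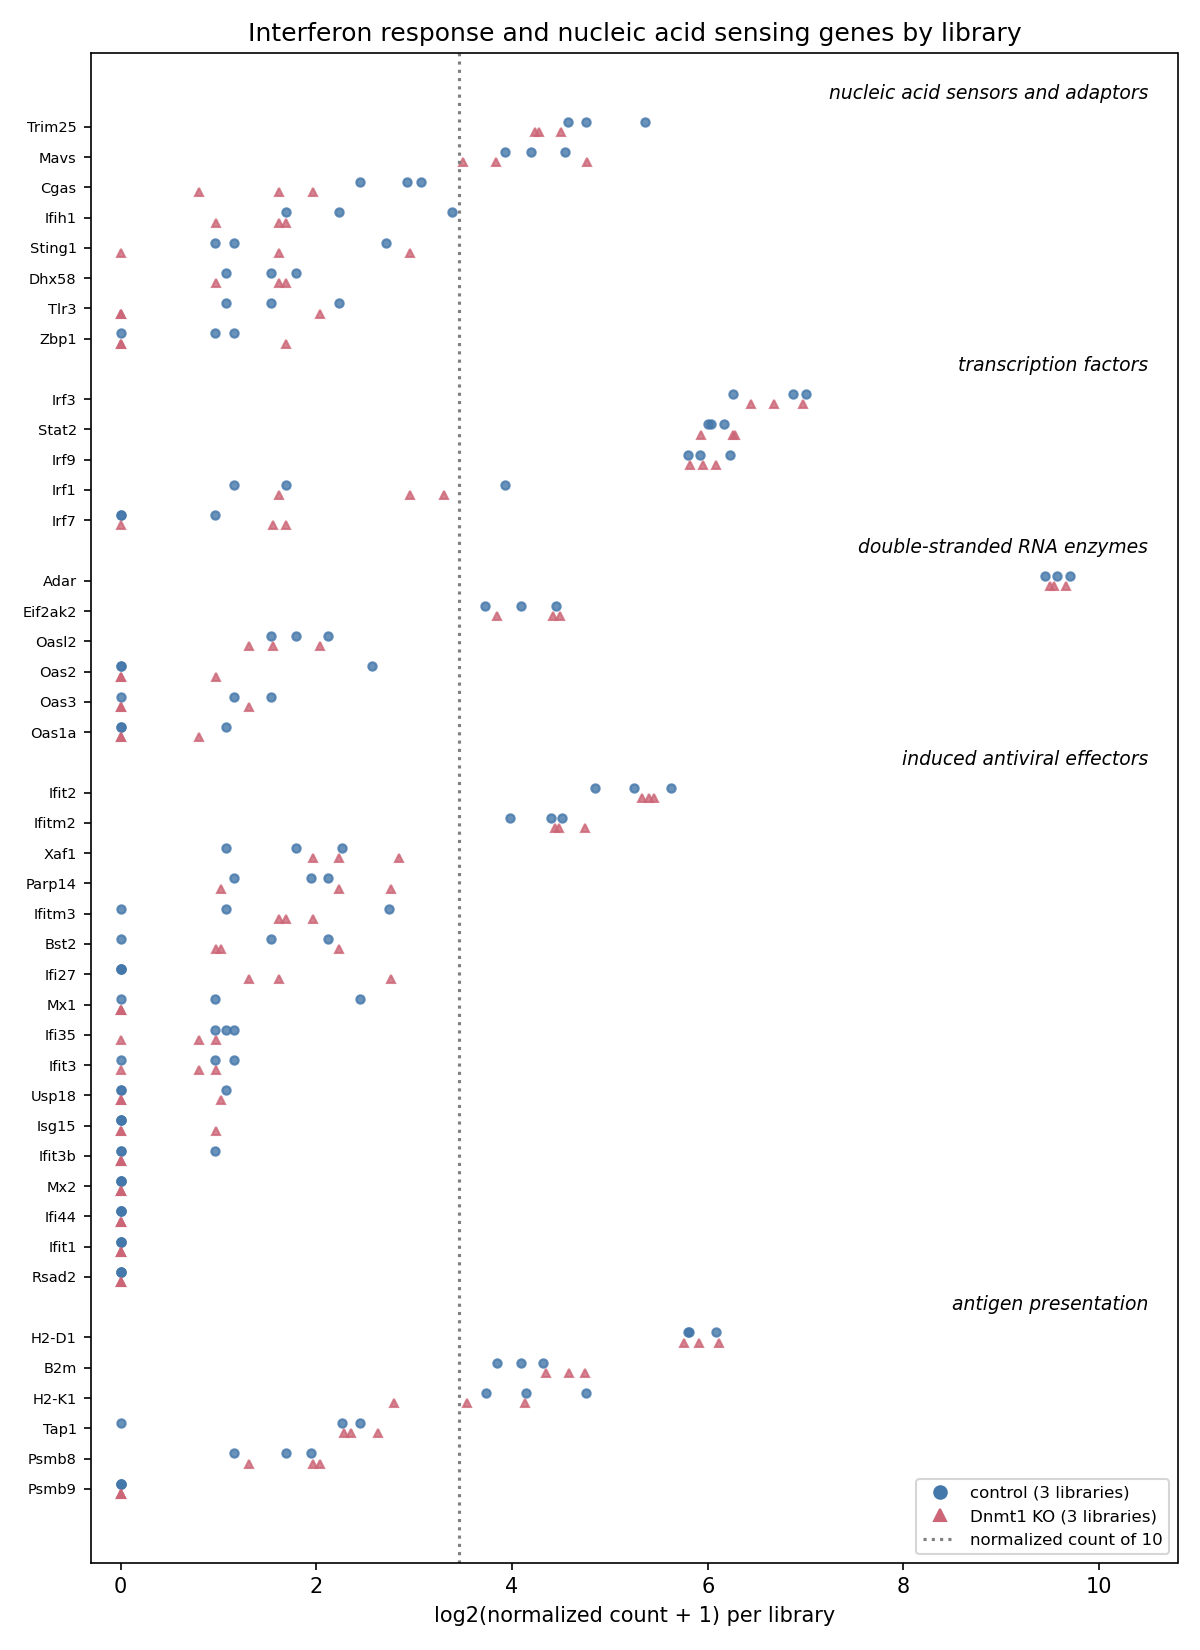
Normalized counts of the 42 genes in each library on a log2(normalized count + 1) axis, grouped by role; circles are the 3 control and triangles the 3 Dnmt1 KO libraries, and the dotted line marks a normalized count of 10. 12 members lie to the right of the line by their mean, with Adar highest, and most induced antiviral effectors lie at or near 0 in both groups.

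The 12 members averaging at least 10 normalized counts over the 6 libraries were tested, and all of them also reached a mean of 10 in each group. None was called higher or lower in Dnmt1 KO (limma, adjusted p under 0.05), while 19.2% of the 14126 genes tested were called (7.64% higher and 11.6% lower), and 12.4% of genes with a mean of 10 to under 100. At an unadjusted p under 0.05 there were also 0 of 12, beside 31.9% of all genes tested. That share was not matched for abundance, and 7 of the 12 members had a mean under 50 normalized counts. EdgeR and DESeq2 on the recovered reads called 0 of 12 as well. The smallest adjusted p of a member was 0.231 (Trim25). The median log2 fold change of the 12 was 0.01, beside 0.02 over all genes tested, and 6 of the 12 values lay above 0. The upper bound of the 95% interval was under a log2 fold change of 1 for 11 members, and the whole interval lay between -1 and 1 for 8.

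**Figure D2:**
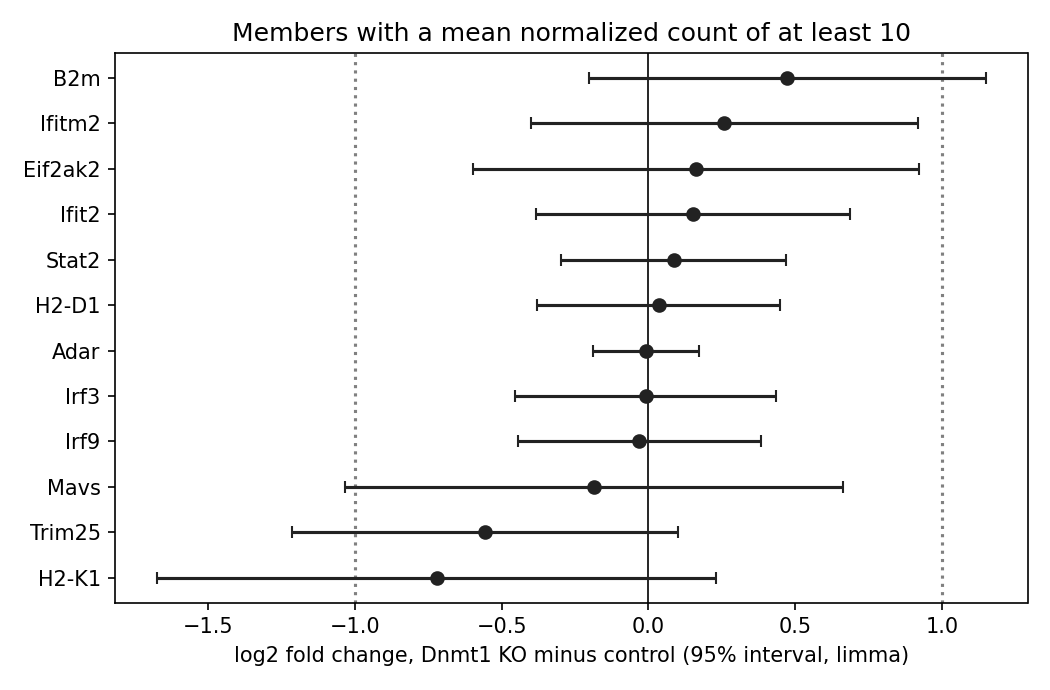
Log2 fold changes (Dnmt1 KO minus control, from limma) of the 12 tested members with 95% intervals, 3 libraries per group; the dotted lines mark -1 and 1. Every interval crosses 0, Adar has the narrowest interval (-0.19 to 0.17) and H2-K1 the widest (-1.68 to 0.23).

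Among the nucleic acid sensors and adaptors, 2 of 8 were tested and neither was called. Trim25 (chromosome 11, 88890202 to 88911122, GRCm39), an E3 ubiquitin ligase of RNA sensing, had normalized counts of 25.9, 22.7 and 40.1 in control and 21.7, 18.4 and 17.8 in Dnmt1 KO libraries. All KO libraries were below all control libraries, with control replicate 3 far above the rest. The mean was 29.6 ± 9.25 (SD, n = 3) and 19.3 ± 2.11 (SD, n = 3), and the log2 fold change was -0.56 (95% interval -1.21 to 0.10, limma, adjusted p = 0.231). Mavs, the mitochondrial adaptor of the RNA helicases, had normalized counts of 17.3, 14.2 and 22.3 in control and 10.3, 26.1 and 13.3 in Dnmt1 KO libraries. The Mavs groups overlapped (log2 fold change -0.18, 95% interval -1.03 to 0.66), and Dnmt1 KO replicate 2 was the highest of the 6 libraries.

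The other 6 sensors and adaptors were too low to test. Cgas (chromosome 9, 78337802 to 78350535), the cytosolic DNA sensor, had 6, 7 and 4 reads in control and 2, 3 and 1 in Dnmt1 KO libraries. In normalized counts these were 7.41, 6.62 and 4.45 against 2.07, 2.90 and 0.740, so every KO library was below every control library. The pooled level of Cgas in KO was 0.291 of that in control, with a counting interval of 0.0940 to 0.774. Ifih1, which encodes the long double-stranded RNA sensor MDA5, had 3, 10 and 2 reads in control and 2, 1 and 3 in Dnmt1 KO libraries. Its normalized counts of 3.70, 9.46 and 2.23 against 2.07, 0.968 and 2.22 did not overlap only by the margin between control replicate 3 and Dnmt1 KO replicate 3, and its pooled ratio was 0.330 (0.105 to 0.900). Sting1, the adaptor below Cgas, was pooled at 2.53 in control and 2.68 in Dnmt1 KO, and Dhx58, a helicase that modulates RNA sensing, at 1.81 and 1.79. Tlr3, an endosomal sensor of double-stranded RNA, had 6 control and 3 KO reads, and Zbp1, which senses Z-form nucleic acids, had 2 and 3.

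Summed over the 8 sensors and adaptors, normalized counts were 58.7 to 76.8 in control and 38.5 to 56.1 in Dnmt1 KO libraries, which did not overlap. The pooled ratio was 0.689 with a counting interval of 0.552 to 0.859, which leaves out the spread between libraries. The separation of the sums did not rest on Trim25 alone, since Cgas and Ifih1 also lay lower in Dnmt1 KO. Trim25 was not called, and Cgas and Ifih1 were too low to test. Trim25 held 22.7 to 40.1 of the summed counts in control and 17.8 to 21.7 in Dnmt1 KO libraries. Among the 12 tested members 1 group pair was separated upwards (B2m) and 1 downwards (Trim25). Of all tested genes 36.7% had groups that did not overlap, a share not matched for abundance. Among the 25 members with reads and a mean under 10, 1 was separated upwards (Ifi27) and 2 downwards (Cgas and Ifih1), beside 9.03% of all genes with reads and a mean under 10 and 17.2% of genes with a mean of 1 to under 10. With 3 libraries per group an exact permutation test cannot give a p below 0.1. In bulk samples, fewer cells of a type and less RNA per cell cannot be told apart. Of the markers of dividing cells, 6 of 8 were called lower and 0 higher in Dnmt1 KO, and of the radial glia markers 5 of 8 lower and 1 higher. Among all genes tested 11.6% were called lower and 7.64% higher. The part of dividing cells and radial glia in the sensor levels was not tested.

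The transcription factors of the pathway divided into expressed and nearly absent genes. Irf3, the factor activated by both sensing routes, had normalized counts of 75.3, 116 and 127 in control and 125, 86.1 and 101 in Dnmt1 KO libraries. The groups overlapped throughout, and the log2 fold change was -0.01 (95% interval -0.45 to 0.43, limma, adjusted p = 0.982). Irf9, the DNA-binding part of the interferon-activated complex, had a mean of 62.8 ± 10.1 (SD, n = 3) in control and 61.1 ± 5.63 (SD, n = 3) in Dnmt1 KO, and its partner Stat2 of 66.2 ± 4.22 (SD, n = 3) and 70.6 ± 9.24 (SD, n = 3). The 95% intervals of their log2 fold changes were -0.44 to 0.38 for Irf9 and -0.30 to 0.47 for Stat2. Irf9 shares its strand and part of its locus with the annotated gene Rnf31, so some reads could have been assigned to either.

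Irf7, which is itself induced by interferon and amplifies the response, had 1 read in control (replicate 2) and 5 in Dnmt1 KO (2 in replicate 2 and 3 in replicate 3). Its pooled ratio of 4.12 had a counting interval of 0.461 to 195. Irf1, which is induced by interferon gamma, had 1, 15 and 2 reads in control and 2, 7 and 12 in Dnmt1 KO libraries, a spread within groups that exceeded the difference between them. Per kilobase of exon, Irf3 reached 30.2 normalized counts, more than 75.9% of listed protein-coding genes, whereas Irf7 reached 0.225.

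Of the 6 double-stranded RNA enzymes, Adar and Eif2ak2 were tested and neither was called. Adar (chromosome 3, 89622329 to 89660753, GRCm39), which converts adenosine to inosine in double-stranded RNA, had normalized counts of 758, 694 and 834 in control and 720, 808 and 742 in Dnmt1 KO libraries. The KO values all fell within the control range. The means were 762 ± 70.0 (SD, n = 3) and 757 ± 45.8 (SD, n = 3), and the log2 fold change was -0.01 with a 95% interval of -0.19 to 0.17, or 0.877 to 1.13 as a fold (limma, adjusted p = 0.962). Per kilobase of exon Adar stood at 93.4 normalized counts, above 90.9% of listed protein-coding genes. Eif2ak2, the kinase PKR that halts translation on binding double-stranded RNA, had normalized counts of 16.1, 20.8 and 12.3 in control and 13.4, 20.3 and 21.5 in Dnmt1 KO libraries (log2 fold change 0.16, 95% interval -0.60 to 0.92).

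Scaling by total reads in place of the size factors shifted the median over all genes from a log2 fold change of 0.02 to one of 0.27. With that scaling Adar was called higher in Dnmt1 KO (log2 fold change 0.25, adjusted p = 0.0271), together with 35.7% of all tested genes, at a value below that median. Adar was the only member called under any alternative that kept the filter on low values. The 4 oligoadenylate synthetase family members, which bind double-stranded RNA or resemble enzymes that do, were near 0. Oas1a had 1 read per group, Oas2 had 4 and 1, Oas3 had 3 and 2, and Oasl2 had 7 and 7 reads in control and Dnmt1 KO. All 4 control reads of Oas2 came from replicate 1.

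The induced antiviral effectors held the classic interferon-stimulated genes. Ifit1, Ifi44, Mx2 and Rsad2 had no read, and Isg15, a ubiquitin-like modifier that is among the strongest interferon-induced genes, had 1 read, in Dnmt1 KO replicate 2. Usp18, which removes Isg15 from proteins, had 1 read in each group. Ifit3 had 2 reads in each group and Ifit3b had 1 in control, and reads of this pair, which are near copies, could have been split between them. Over the 15 effectors with a mean under 10 there were 38 reads in control and 57 in Dnmt1 KO. Their pooled level was 13.7 (counting interval 9.73 to 18.9) and 17.0 (12.9 to 22.03) normalized counts, a ratio of 1.24 (0.806 to 1.92). The sums per library ranged from 6.17 to 18.0 in control and from 13.4 to 21.3 in Dnmt1 KO, with overlap.

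Ifi27 and Mx1 had reads in 1 genotype only, as did Isg15 and Ifit3b with 1 read each. Ifi27 (chromosome 12, 103392254 to 103407799), an interferon-induced gene, had 0 reads in all 3 control libraries and 2, 6 and 2 reads in Dnmt1 KO libraries. The exact counting interval of its KO to control ratio started at 1.85. It fell under the abundance filter; without any filter it was the only member called (limma, log2 fold change 1.90, adjusted p = 0.0297), and 9.79% of genes were called in that fit. Mx1, a gene of the dynamin-like GTPase family, had 0, 1 and 4 reads in control and none in Dnmt1 KO libraries. The counting interval of its KO to control ratio reached up to 0.900, with 4 of the 5 reads from control replicate 3. Both rest on few reads, and Ifi27 overlaps the related gene Ifi27l2a on the opposite strand. The sources used here do not state the strand setting of the counting. Cgas and the tested members Mavs, Irf3, Eif2ak2, Adar, Ifitm2, B2m, H2-K1 and H2-D1 also overlap annotated genes on the opposite strand.

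**Figure D3:**
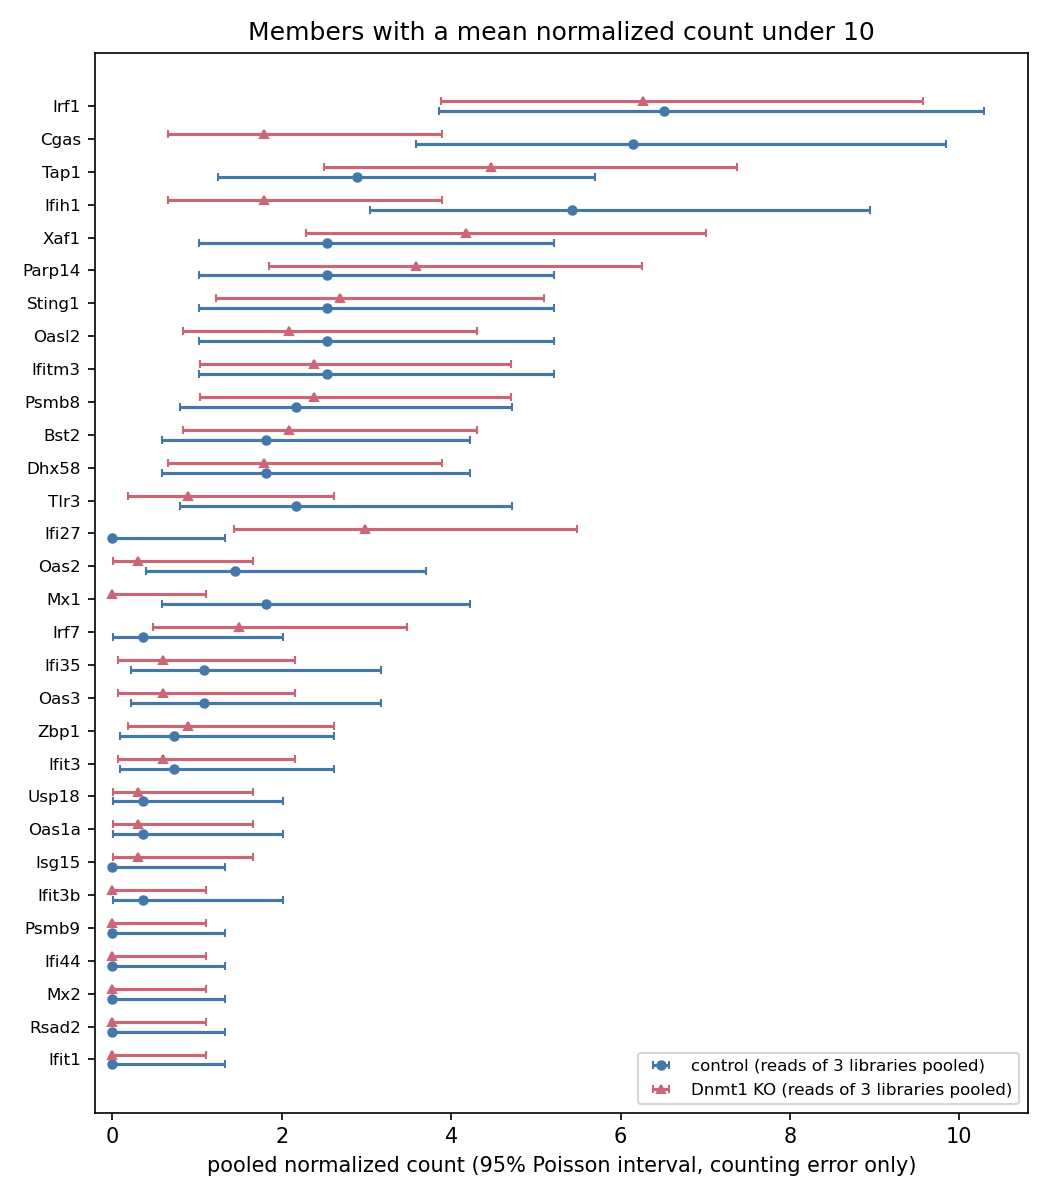
Pooled normalized counts of the 30 members with a mean under 10, with 95% Poisson intervals that cover counting error only; circles are control and triangles Dnmt1 KO, each pooling 3 libraries. Intervals overlap for nearly all members, those of Ifi27 stand apart (0 in control and 2.98 in Dnmt1 KO), and Irf1 has the highest level.

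Within the Ifit cluster on chromosome 19, Ifit2 alone had more than 2 reads per group. Ifit2 (34527932 to 34554524, GRCm39), which binds RNA and limits translation, had normalized counts of 37.0, 48.2 and 27.8 in control and 41.3, 42.6 and 39.2 in Dnmt1 KO libraries. The KO values lay within the control range (log2 fold change 0.15, 95% interval -0.38 to 0.69). Its neighbours Ifit3 (from 34560899), Ifit3b (from 34585328) and Ifit1 (from 34618271) had at most 2 reads per group. A like contrast was present on chromosome 7, where Ifitm2 had normalized counts of 14.8, 21.8 and 20.0 in control and 25.8, 21.3 and 20.7 in Dnmt1 KO libraries, and Ifitm3 had 7 and 8 reads per group. Both encode membrane proteins that restrict virus entry, and the sequence they share makes the assignment of their reads uncertain. The log2 fold change of Ifitm2 was 0.26 (95% interval -0.40 to 0.92), and its annotated interval shares its strand with Gm45717.

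The remaining effectors were low in both groups. Bst2, which tethers budding virus to the cell, had 5 control and 7 KO reads, and Ifi35 had 3 and 2. Parp14, a mono-ADP-ribosyltransferase, had 7 and 12 reads (pooled ratio 1.41, 0.513 to 4.24), and Xaf1, a pro-apoptotic factor, had 7 and 14 (1.65, 0.623 to 4.83). The groups of these 4 genes overlapped.

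Genes of antigen presentation were expressed at low to moderate levels. B2m (chromosome 2, 121977957 to 121983594, GRCm39), the light chain of class I molecules, had normalized counts of 16.1, 18.9 and 13.4 in control and 25.8, 19.4 and 22.9 in Dnmt1 KO libraries. Every KO library was above every control library, by a small margin between control replicate 2 and Dnmt1 KO replicate 2. The means were 16.1 ± 2.78 (SD, n = 3) and 22.7 ± 3.24 (SD, n = 3), and the log2 fold change was 0.47 (95% interval -0.20 to 1.15, limma, adjusted p = 0.325). H2-K1, a class I heavy chain, lay the other way with 25.9, 12.3 and 16.7 in control and 16.5, 10.6 and 5.92 in Dnmt1 KO libraries. Its groups overlapped (log2 fold change -0.72, 95% interval -1.68 to 0.23, adjusted p = 0.285). H2-D1, another heavy chain, had a mean of 58.7 ± 6.90 (SD, n = 3) in control and 60.2 ± 7.52 (SD, n = 3) in Dnmt1 KO (log2 fold change 0.03, 95% interval -0.38 to 0.45).

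H2-K1 and H2-D1 are close relatives, and reads that match both could have been split between them. Tap1, the peptide transporter, had 8 control and 15 KO reads, and Psmb8, a subunit of the immunoproteasome, had 6 and 8. Psmb9, another such subunit, had none in any library. Summed over the 6 genes, normalized counts were 91.3 to 110 in control and 90.0 to 118 in Dnmt1 KO, with a pooled ratio of 1.03 (counting interval 0.872 to 1.21).

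Microglia and macrophages express many of these genes, and their markers were present in the sorted cells. The summed normalized count of the 14 microglia and macrophage markers was 91.8 to 116 in control and 143 to 180 in Dnmt1 KO libraries. Mrc1, the mannose receptor and the most abundant of them, rose from 14.8, 17.0 and 12.3 to 48.5, 44.5 and 54.8 (log2 fold change 1.69, limma, adjusted p = 0.00067), and was the only 1 of 4 tested markers called. Without Mrc1 the other 13 summed to 74.7 to 101 in control and 94.0 to 135 in Dnmt1 KO, with overlap. Their pooled ratio was 1.31 (counting interval 1.11 to 1.54), and that of all 14 was 1.61 (1.39 to 1.86). These intervals leave out the spread between libraries. All 14 had reads, and 10 were too low to test. Of the defining genes, Cx3cr1, Csf1r and Tyrobp, picked with their values in view, were detected in all 6 libraries, with Tyrobp at 1.89 to 2.96 normalized counts. The part of these cells in the levels of B2m, Ifi27 and the other members was not tested. Endothelial markers summed to 396 to 454 in control and 449 to 467 in Dnmt1 KO libraries, with 0 of 11 called (limma; 3 of 11 at an unadjusted p under 0.05).

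**Figure D4:**
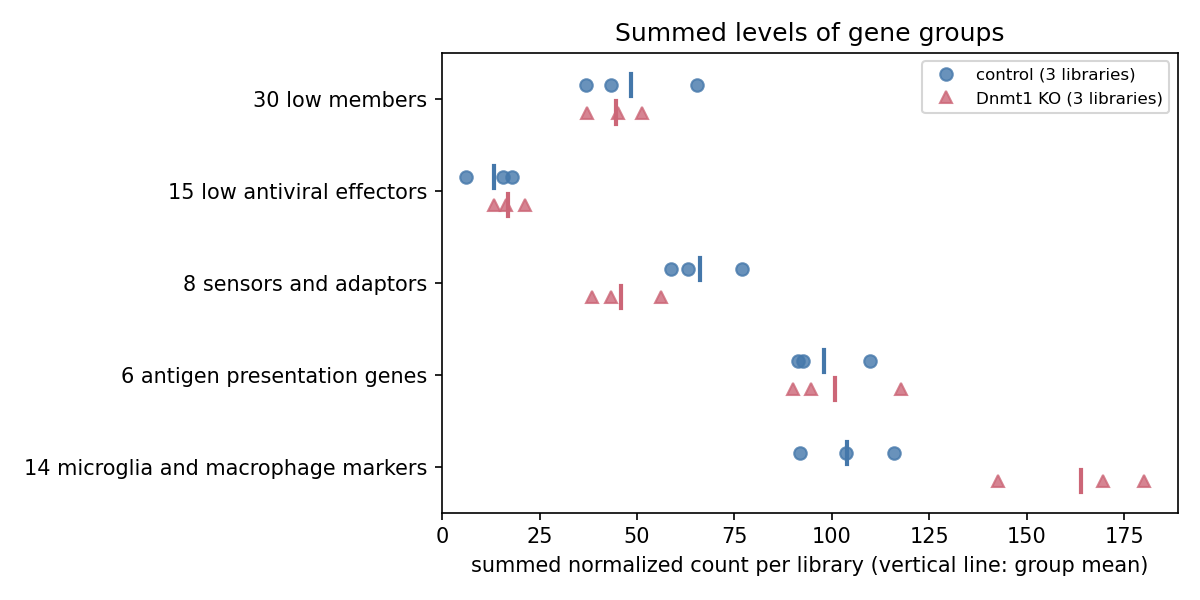
Summed normalized count per library of 4 groups of members and of the microglia and macrophage markers; circles are the 3 control and triangles the 3 Dnmt1 KO libraries, and vertical lines are group means. The sensors and adaptors do not overlap between groups and lie lower in Dnmt1 KO (38.5 to 56.1 against 58.7 to 76.8), the markers lie higher (143 to 180 against 91.8 to 116), and the other groups overlap. Trim25, Cgas and Ifih1 all contributed to the separation of the sensors and adaptors. Trim25 was not called, and Cgas and Ifih1 were too low to test.

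The wider pathway was read from 122 partner genes, of which 106 had a read and 55 were tested. Of these 55, 2 were called higher and 2 lower, beside 19.2% called in either direction among all genes tested. An unadjusted p under 0.05 was found for 17, beside 31.9% of all genes tested. All 10 interferon ligands listed had 0 reads in all 6 libraries. The receptors were present: Ifnar1 had normalized counts of 464, 465 and 491 in control and 435, 446 and 465 in Dnmt1 KO libraries (log2 fold change -0.08, 95% interval -0.25 to 0.09). Ifnar2, Ifngr1 and Ifngr2 had log2 fold changes of 0.24, 0.04 and 0.33, and the kinases Jak1 and Tyk2 of -0.06 and 0.24, none of them called. Rigi, the sensor of short double-stranded RNA, had 1.23, 1.89 and 5.57 against 3.10, 6.77 and 4.44 and was too low to test.

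Of the called partners, Irf2bpl, Traf3 and Slfn9 are described here. Irf2bpl, a transcriptional regulator of the Irf2-binding family, rose from 782, 884 and 750 to 916, 1067 and 1067 normalized counts (log2 fold change 0.34, adjusted p = 0.015), a call that was lost without control replicate 3, Dnmt1 KO replicate 2 or Dnmt1 KO replicate 3. Traf3, a ubiquitin ligase below Mavs, fell from 385, 391 and 374 to 297, 323 and 326 (log2 fold change -0.28, adjusted p = 0.037). The Traf3 call was lost when any single library was left out (adjusted p = 0.068 to 0.113), with DESeq2 (0.077), with the replicate block (0.055) and without the filter (0.068). With scaling by total reads the log2 fold change of Traf3 was -0.023 (adjusted p = 0.856). Slfn9, a member of the interferon-inducible Schlafen family, fell from 61.7, 66.2 and 76.8 to 38.2, 43.5 and 34.8 (log2 fold change -0.80, adjusted p = 0.0142), and its call was lost without control replicate 3 (0.060) or Dnmt1 KO replicate 3 (0.062).

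Genes that silence retroelements, whose transcripts are the trigger in viral mimicry, were listed as well. All 27 were tested, with 4 called lower and 0 called higher (limma), beside 11.6% lower and 7.64% higher among all genes tested. These 4 included Dnmt1, the gene deleted by design, so its fall carries no information on the other listed genes. Uhrf1, which brings Dnmt1 to newly replicated DNA, fell from 656, 526 and 592 to 315, 331 and 305 normalized counts (log2 fold change -0.89). Dnmt3a, a de novo methyltransferase, fell by 0.31 on the log2 scale, Dnmt1 by 0.26 and Hells, a remodelling factor needed for DNA methylation, by 0.49 (adjusted p = 0.035). With scaling by total reads, Uhrf1 alone of the 4 passed the threshold. The Hells call was lost without control replicate 2 (adjusted p = 0.102), control replicate 3 (0.074), Dnmt1 KO replicate 1 (0.117) or Dnmt1 KO replicate 3 (0.129). Uhrf1 and Hells are known for high expression in dividing cells, whose marker Mki67 fell by 0.53 on the log2 scale, and the part of dividing cells in these values was not tested.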

How the data were processed

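RNA of FAC-sorted cells was sequenced by the study as stranded total RNA libraries after depletion of ribosomal RNA. Per the submitters' processing notes, the tools were STAR 2.7.11b, Trim Galore 0.6.10, DESeq2 1.42.1, Salmon 1.10.3 and R 4.3.3 with the GRCm39 genome; the notes give no roles, and the study's methods give other versions. The authors deposited a signal per gene, namely normalized counts, made by dividing the counts of a library by its size factor. All values (100%, tolerance 0.001) were whole multiples of 1 step per library (0.740 to 1.23), so reads were recovered and totalled 7154043 to 10089981 per library. Intervals on reads (exact Poisson, exact binomial for ratios, 95%) and limits for 0 reads cover counting error only. The sources do not state if reads were collapsed by molecular identifier. The authors' own fold changes, p-values and enrichment tables were not used.

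Genes averaging at least 10 normalized counts across the 6 libraries (14126 genes) were tested as log2(normalized count + 1) with limma 3.58.1 (lmFit, eBayes with a trend, R 4.3.3), two-sided, with Benjamini-Hochberg adjustment over all of them and a threshold of 0.05. Fold changes on this scale understate those of low genes. EdgeR 4.0.16 and DESeq2 1.42.0 were run on the recovered reads as alternatives, beside other scalings, pseudocounts of 0.5 and 5, a minimum mean of 50 or none, a replicate block and each library left out. The fits were tested on simulated data. Gene positions came from GENCODE M39 (GRCm39), and 0.879% of listed genes were missing there. Promoters came from RefSeq (GRCm38.p6); 9 members had no matching entry (Dhx58, Ifi27, Mx1, Mx2, Oas2, Parp14, Sting1, Usp18 and Zbp1).

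Groups and replicate numbers came from sample titles, since the genotype label is the same for all 6 samples. No libraries were merged, since those of a group differed by a chi-square per gene of 3.48 to 12.7. All members, the receptors, Jak1, Tyk2, Rigi, Dnmt1, Sst, up to 4 called genes per partner list with the smallest p and the most abundant marker of each list could be named; any other is marked as picked with its values in view. Some genes that the rule names are not reported here. The members and lists were chosen with earlier results of these data known.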

Additional observations from a re-analysis of the deposited data

How the results depend on the processing

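No member was called under TMM factors, quantile normalization, size factors from protein-coding genes, edgeR, DESeq2, robust eBayes, either other pseudocount, a minimum mean of 50 (5 members tested), the replicate block or any left-out library. Scaling by total reads called 1 member higher (Adar), and dropping the filter called 1 (Ifi27). Scaling by total reads called 5046 genes higher and 1062 lower, 20 partners higher and 1 lower, beside 1079, 1638, 2 and 2 in the limma fit, and raised the share of higher calls from 39.7% to 82.6%. That share was 51.5% with quantile normalization (4 partners higher). Partners called lower numbered 1 with DESeq2, 1 without the filter and 1 with the replicate block, and all genes called under the replicate block were 945 higher and 1583 lower. The numbers did not pair the samples (correlations of same-numbered libraries -0.02, 0.06 and -0.03), and the block called 0 members. With 1 library left out, 1 to 3 partners were higher and 0 to 2 lower, and 528 to 973 genes were higher, with 528 without Dnmt1 KO replicate 3 and 569 without Dnmt1 KO replicate 2.

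Uncalled log2 fold changes near 0 changed sign. With total reads they were 0.059 (Mavs), 0.25 (Irf3), 0.22 (Irf9), 0.18 (Ifnar1) and 0.20 (Jak1), besides Adar at 0.25. With quantile normalization they were 0.080 (Mavs), 0.044 (Irf3), 0.077 (Irf9) and 0.013 (Adar), and with protein-coding size factors Hba-a2, the most abundant erythroid marker, was at -0.000446. With 1 library left out the ranges were -0.55 to 0.082 (Mavs), -0.24 to 0.14 (Irf3), -0.12 to 0.093 (Irf9), -0.018 to 0.36 (Eif2ak2), -0.073 to 0.059 (Adar), -0.043 to 0.34 (Ifit2), -0.057 to 0.13 (H2-D1), -0.10 to 0.30 (Ifngr1) and -0.049 to 0.15 (Hba-a2). The cause was not tested. Depth limits the 30 members with a mean under 10: over the 15 low effectors together, the interval of the ratio still spanned 0.806 to 1.92.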

Other observations

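Among interferon-linked restriction factors outside the 42 genes, 3 were chosen after their values were seen. Apobec3, a cytidine deaminase that restricts retroviruses, had normalized counts of 27.2, 11.4 and 25.6 in control and 6.20, 6.77 and 11.8 in Dnmt1 KO libraries (log2 fold change -1.23, 95% interval -2.18 to -0.28, limma, adjusted p = 0.069). Mov10, a helicase that limits retroelements, had 34.6, 34.1 and 34.5 against 22.7, 19.4 and 17.8 (log2 fold change -0.76, adjusted p = 0.059), and the groups did not overlap. Pml, which forms nuclear bodies, had 88.9, 88.9 and 74.6 against 56.8, 66.8 and 48.9 (log2 fold change -0.55, adjusted p = 0.053). None passed the threshold in that fit. Apobec3 passed without control replicate 2 (adjusted p = 0.0258), and Pml passed with size factors from protein-coding genes (0.0417) and with robust eBayes (0.0498). These 3 genes all fell, and they show only 1 side of their list of other interferon-induced partners. Of the 11 genes tested in that list, 4 had a log2 fold change above 0, and the median was -0.12. Groups were separated upwards for 2 of the 11 and downwards for 4. In the limma fit 1 of the 11 was called lower (Slfn9) and 0 higher.

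Among the cell type markers, 9 of 10 interneuron markers were called higher in Dnmt1 KO, beside 7.64% of all genes tested. Lhx6 was at 5233 to 6012 normalized counts in control and 6706 to 7104 in Dnmt1 KO libraries. Sst was the marker not called (log2 fold change 0.14, limma, adjusted p = 0.134). The paper reports several of these markers, including Lhx6, as upregulated in Dnmt1 KO cells. Of the fibroblast and meninges markers 4 of 8 were called lower, beside 11.6% of all genes tested. Of the pericyte markers 0 of 6 were called (limma, also 0 at an unadjusted p under 0.05). Vim, the most abundant radial glia marker, fell by 0.38 on the log2 scale.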
